A study of Mus musculus with 30 samples.

Results

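The comparison set 4 pools of hippocampal RNA from Nf1 heterozygous mice at postnatal day 10 (P10) against 3 wild-type pools of the same age. These were 7 of the 30 libraries in the series, and they were chosen by the genotype and age in the sample titles. Pups of both genotypes came from crosses between C57BL/6 animals and Nf1 heterozygous animals. Only males were used, each pool combined the hippocampi of 2 pups of 1 genotype, and genotype was read from the liver. Pools are named by the number and letter in their titles (1a, 1b, 2a, 2b), whose meaning the labels do not give. The labels do not name the Nf1 allele, and litters were not used here. RNA was measured on Affymetrix MG-U74Av2 arrays, which carry 12488 probe sets, each a group of short oligonucleotides that reports 1 transcript or a few. The values are intensities on a linear scale, and differences are given as heterozygous minus wild type on the log2 scale.

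Neurofibromin, the product of Nf1, switches the small GTPase Ras off by speeding its hydrolysis of GTP, and it also raises cyclic AMP production in neural cells. Loss of 1 copy causes neurofibromatosis type 1, in which learning difficulties are common, and heterozygous mice show spatial learning deficits that depend on hippocampal circuits. In the second postnatal week of the mouse, hippocampal synapses multiply, astrocytes mature and the first oligodendrocytes begin to build myelin.

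At P10 few probe sets passed the adjusted threshold between the genotypes. Of 7453 probe sets tested with limma across all 30 libraries, 3 passed a Benjamini-Hochberg adjusted p of 0.05 (0.0403%). Degs2 and Adar rose in the heterozygotes (2 probe sets, 0.0268%), and Zic2 fell (1 probe set, 0.0134%). At an unadjusted p below 0.05 there were 443 probe sets (5.94%), of which 224 were higher and 219 lower in the heterozygotes. All heterozygous pools lay above all wild-type pools for 392 probe sets (5.26%) and below them for 356 (4.78%). Differences stayed within 1.5-fold for 97% of the probe sets tested, and the median difference was 0.002. The median 95% interval reached 0.34 to either side of the estimate, or 1.26-fold, and it was narrower in the brightest 25% of probe sets (0.25) than in the dimmest 25% (0.50).

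**Figure D1:**
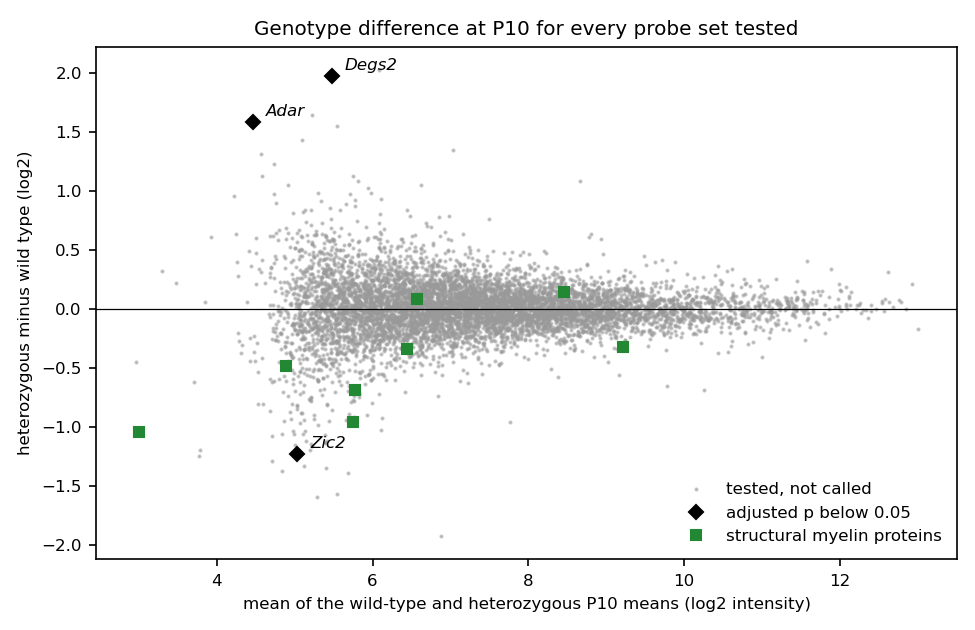
Each point is 1 of the 7453 probe sets tested, with the mean log2 intensity of the P10 groups on the x axis and the heterozygous minus wild-type difference (log2) on the y axis. Black diamonds are the 3 called probe sets, all in the dim left part of the plot, and green squares are the structural myelin genes, of which 6 of 8 lie below 0.

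The targeted gene could not check the genotypes on this array. Nf1, represented by 1 probe set, read 1.43, 9.41 and 4.36 in wild-type pools 1b, 2a and 2b and 2.15, 2.28, 4.65 and 11.5 in heterozygous pools 1a, 1b, 2a and 2b. These intensities are dim, since 13.5% of all probe sets had an equal or lower mean, and the groups overlapped broadly. The wild-type mean was 5.07 ± 4.04 (SD, n = 3) and the heterozygous mean 5.15 ± 4.40 (SD, n = 4). The difference was 0.05 (SE 0.72, 95% interval -1.44 to 1.54), with an adjusted p of 0.994 in limma without a filter. A two-sided exact permutation test over the 7 pools gave p = 0.971, and the smallest p it can give is 0.0571. The interval is too wide to tell the loss of 1 allele's transcript from no change. The position of the probe set relative to the disrupted part of the gene was not used here.

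The 7 libraries were alike in overall level. Median intensities ran from 55.66 to 59.11, and log2 values correlated at 0.953 to 0.955 within wild type, 0.955 to 0.966 within heterozygotes and 0.949 to 0.959 between genotypes. The 3' to 5' Gapdh ratio (log2), which rises when RNA is degraded, lay between -0.15 and 0.06. That of actin lay between 0.177 and 0.402 and was lowest in heterozygous pools 2a (0.177) and 1b (0.178). In these pools 2.09% and 2.03% of values lay below 1, against 1.05% to 1.52% in the wild-type pools. All 7 neuronal markers passed the filter, among them Prox1 of dentate granule cells and Neurod6 of pyramidal cells, and their sum ran from 4176 to 4488 in wild type and from 4372 to 5077 in heterozygotes. Xist, expected only in females, read at most 16.55 and 11.19 in the genotypes, on a probe set below the filter. Eif2s3y, a Y-linked gene, read 89.7, 95.2 and 110 in wild-type and 51.2, 45.2, 98.0 and 118 in heterozygous pools. Its difference was -0.45 with overlap (limma adjusted p = 0.844), and the cause of the lower values in pools 1a and 1b was not tested. Male markers summed to 115 to 158.6 in wild type and 69.15 to 153.6 in heterozygotes. Summed markers of neurons, interneurons, astrocytes, microglia, endothelium, meningeal fibroblasts and blood overlapped between genotypes, and none of the markers was called. Choroid plexus, which lies in the ventricle beside the hippocampus, varied from pool to pool. Ttr, transthyretin, which choroid plexus makes, read 913, 64.5 and 369 in wild-type and 60.6, 2099.9, 1219 and 777 in heterozygous pools. The summed choroid plexus markers spanned 103 to 1013 and 88.2 to 2442. High and low pools occurred in both genotypes. Oligodendrocyte markers, described further on, were the summed set whose ranges did not overlap.

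Degs2 encodes a sphingolipid desaturase and hydroxylase that makes phytoceramides. Its intensities in the wild-type pools were 16.2, 44.9 and 15.7, against 101, 108, 90.5 and 60.8 in the heterozygous pools. Every heterozygous pool was above the brightest wild-type pool. The means were 25.6 ± 16.7 (SD, n = 3) and 90.2 ± 20.9 (SD, n = 4), a rise of 1.97 on the log2 scale (SE 0.28, 3.91-fold, limma adjusted p = 0.00169). At P15 the Degs2 difference was 0.05, and later wild-type means lay between 62.61 and 72.46, above the wild-type mean at P10. Later heterozygous means lay between 60.09 and 92.69. The change of the Degs2 difference between P10 and P15 was not called (adjusted p = 0.124).

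Adar encodes an enzyme that converts adenosine to inosine in double-stranded RNA. On the called probe set it read 12.5, 16.3 and 10.2 in wild-type and 32.4, 39.6, 33.8 and 49.6 in heterozygous pools, with no overlap. The rise was 1.58 (SE 0.28, adjusted p = 0.0254), and no fold is given because both means lay below an intensity of 50. A brighter Adar probe set, with means of 59.56 and 68.55, gave a difference of 0.19 with an adjusted p of 0.975. The pair of probe sets for this gene therefore disagreed in size. At P15 the difference on the called probe set was 0.25. It was -0.67 at P18, -0.54 at P20, -0.12 at P28 and 1.49 at P32, where there was 1 heterozygous pool. Across the ages after P10 the wild-type mean ranged from 15.15 to 51.59 and the heterozygous mean from 28.97 to 43.96.

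Zic2, a zinc finger transcription factor of forebrain and cerebellar development, was the called gene that fell. It read 45.9, 48.9 and 56.5 in the wild-type pools and 20.8, 23.8, 22.9 and 18.5 in the heterozygous pools, so that each heterozygous pool was dimmer than every wild-type pool. The means were 50.5 ± 5.47 (SD, n = 3) and 21.5 ± 2.39 (SD, n = 4). The heterozygotes fell by 1.23 on the log2 scale (SE 0.22, 2.35-fold lower, adjusted p = 0.0254). A second Zic2 probe set was below the filter on dim values and gave 0.29 in the opposite direction. At all later ages the heterozygous mean was between 40.70 and 48.06 and the wild-type mean between 39.63 and 56.84, and the difference at P15 was -0.17. The related Zic1, also a zinc finger factor, read 315, 374 and 444 in wild-type and 216, 392, 212 and 265 in heterozygous pools, which overlapped, and differed by -0.51 (adjusted p = 0.92).

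**Figure D2:**
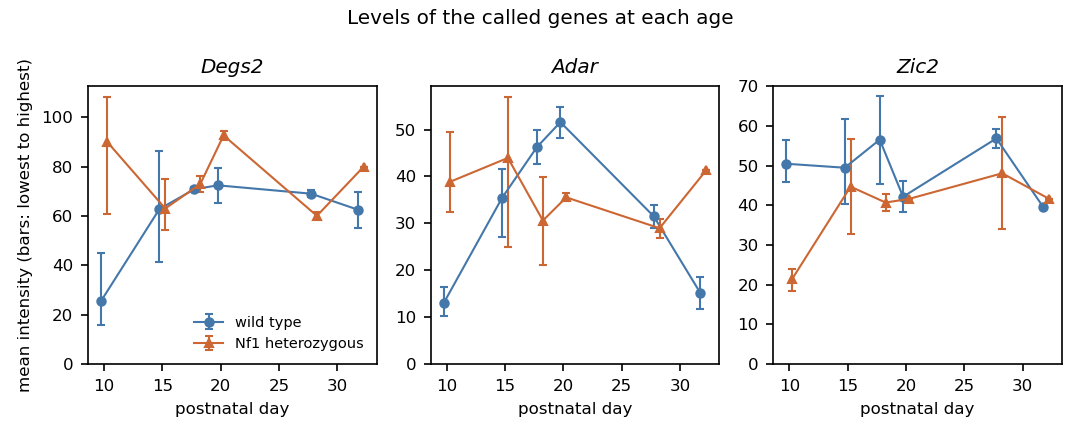
Mean intensity (y axis) of Degs2, Adar and Zic2 at each postnatal day (x axis) in wild-type (blue circles) and heterozygous (orange triangles) pools, with bars from the lowest to the highest pool. For all 3 genes, which were chosen by their P10 difference, the P10 ranges of the genotypes are apart, and at P15 they overlap. The change of the difference between these ages was called for none (limma adjusted p = 0.124, 0.449 and 0.449).

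The calls depended on single pools and on which ages shared the estimate of spread. Leaving out wild-type pool 2b left 0 calls (376 probe sets at unadjusted p below 0.05, Degs2 at an adjusted p of 0.0582), and leaving out heterozygous pool 2a left 1, Degs2. A fit to the 7 P10 libraries alone called 2 other probe sets, Snrp1c-ps2 and Adk, and put Degs2, Adar and Zic2 at adjusted p of 0.175, 0.278 and 0.278.

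The next genes by p-value were named as not called. Among those with higher values in the heterozygotes was Adk, adenosine kinase, which clears adenosine and moves from neurons to astrocytes as the brain matures. It read 360.1, 344 and 372 in wild-type and 576, 500.2, 573 and 581 in heterozygous pools, without overlap and with tight spreads at a bright level. The difference was 0.63 (SE 0.13, 1.55-fold) with an adjusted p of 0.0693 over all ages. In the fit to the P10 libraries alone it passed the threshold (adjusted p = 0.0269). Its other probe sets were too dim to test. At P15 the Adk difference was 0.18. It was 0.75 at P18, 0.39 at P20, -0.56 at P28 and -0.02 at P32, with 1 or 2 heterozygous pools at each of these ages.

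Cdh10, a classical cadherin of neuronal surfaces, read 59.4, 73.2 and 72.9 in wild-type and 109.6, 88.5, 108 and 105 in heterozygous pools, a difference of 0.59 (adjusted p = 0.107). Its P15 difference was -0.28, and the change between ages had an adjusted p of 0.145. Derl1, a channel protein of endoplasmic reticulum quality control, read 146, 116 and 127 in wild-type and 184, 178, 173 and 181 in heterozygous pools, a difference of 0.47 (adjusted p = 0.122). Both genes had no overlap between genotypes, while a second Derl1 probe set of similar brightness gave 0.01. Ndufab1, the mitochondrial acyl carrier protein, read 645, 668 and 771 in wild-type and 836, 799, 1095 and 944 in heterozygous pools and differed by 0.40 (adjusted p = 0.287).

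Cela1, a pancreatic-type elastase, read 59.3, 18.7 and 18.5 in wild-type and 79.4, 76.5, 56.1 and 121 in heterozygous pools with wild-type pool 1b high and overlapping. Hif3a, a hypoxia-inducible factor subunit, read 37.9, 23.5 and 9.95 in wild-type and 47.2, 57.0, 44.9 and 80.5 in heterozygous pools. Their differences were 1.55 (adjusted p = 0.107) and 1.43 (adjusted p = 0.239), and without wild-type pool 2b that of Hif3a was 0.90. Gatad2a, a subunit of the NuRD chromatin complex, differed by 0.60 on 1 probe set (adjusted p = 0.279) and by 0.08 and 0.01 on brighter or equally bright ones. Cnot4, a ubiquitin ligase of the CCR4-NOT complex, read 102, 82.5 and 73.8 in wild-type and 115, 143, 111 and 112 in heterozygous pools and differed by 0.49 (adjusted p = 0.279).

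Among genes with lower values in the heterozygotes, Chek2, a DNA damage checkpoint kinase, read 97.8, 79.0 and 85.4 in wild-type and 59.8, 52.4, 57.7 and 42.5 in heterozygous pools. The genotypes did not overlap, and the difference was -0.73 (SE 0.15, adjusted p = 0.0693). Shh, the secreted morphogen Sonic hedgehog, read 42.8, 49.0 and 47.3 in wild-type and 17.6, 30.1, 28.4 and 26.7 in heterozygous pools, also without overlap, with a difference of -0.88 (adjusted p = 0.107) and 0.21 at P15. Six2, a homeobox factor known from kidney and skull base, read 107, 64.4 and 74.4 in wild-type and 35.5, 22.4, 21.6 and 30.8 in heterozygous pools. It differed by -1.57 (adjusted p = 0.0909). The summed meningeal and fibroblast markers ran from 1291 to 1521 and from 1318 to 1458, and the part of these cells in the Six2 value was not tested.

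Snrp1c-ps2, a pseudogene related to the U1 snRNP protein C gene, had a wide separation on a bright probe set. It read 232, 236 and 217 in the wild-type and 78.6, 49.2, 59.4 and 57.4 in the heterozygous pools, a difference of -1.92 (SE 0.51, 3.79-fold lower). Over all ages it was not called (adjusted p = 0.313), and in the P10 libraries alone it was (adjusted p = 0.000849). Within single genotypes at later ages its intensity varied widely, for example from 50.90 to 263.2 among the heterozygous P15 pools. Since a pseudogene shares sequence with its parent gene, which transcript this probe set reports is uncertain.

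Srsf5, a splicing factor, read 376, 375 and 484 in wild-type and 266, 257, 245 and 337 in heterozygous pools, with no overlap and a difference of -0.58 (adjusted p = 0.333). Gmppb, which makes GDP-mannose for glycosylation, differed by -0.77 (adjusted p = 0.323) and Rnft1, a RING finger protein, by -0.95 (adjusted p = 0.333). Reck, a membrane-anchored inhibitor of matrix metalloproteinases, read 72.0, 65.0 and 67.3 in wild-type and 9.56, 69.7, 26.4 and 14.8 in heterozygous pools, with heterozygous pool 1b at the wild-type level and the others lower. Its difference was -1.59 (adjusted p = 0.25). Lgi4, a secreted protein that Schwann cells need for myelination, read 77.5, 80.2 and 49.5 in wild-type and 39.5, 16.5, 15.8 and 47.7 in heterozygous pools and differed by -1.35 (adjusted p = 0.279). Of the 20 genes named by p-value, 10 had the same sign at P15.

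**Figure D3:**
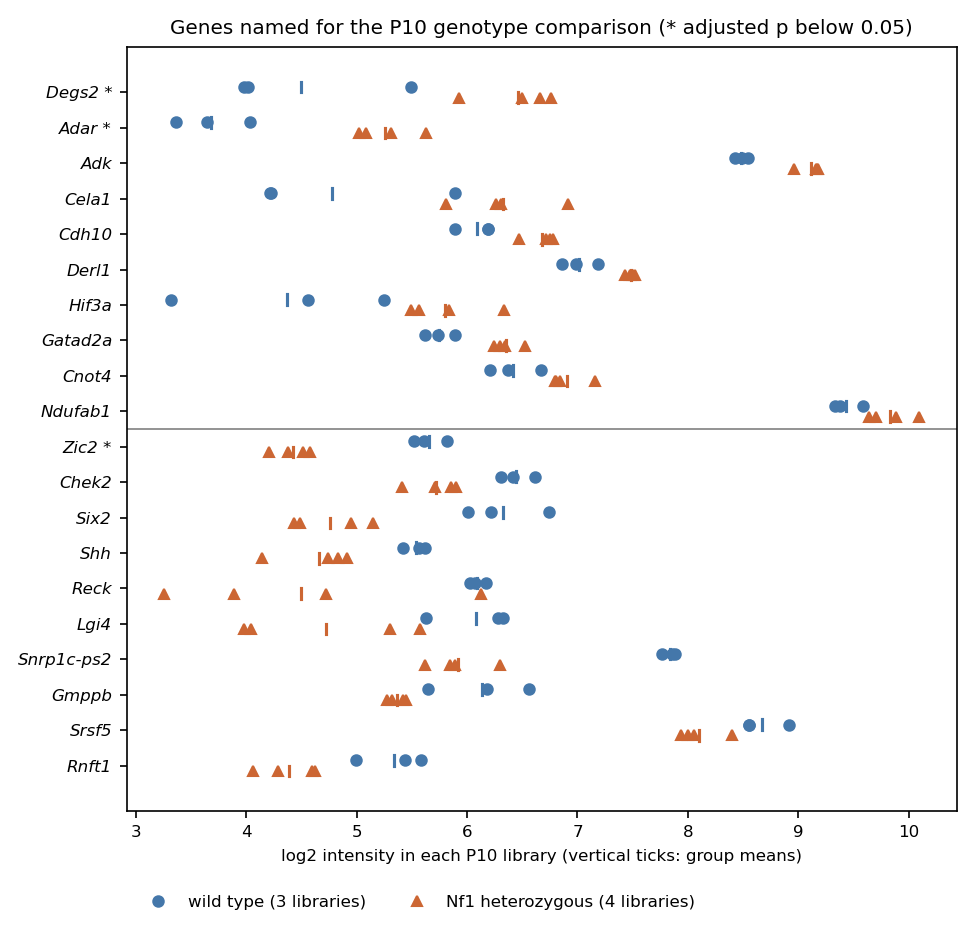
Log2 intensity (x axis) of 20 named genes (y axis) in each P10 pool, with wild-type pools as blue circles, heterozygous pools as orange triangles and group means as vertical ticks. Genes above the grey line were higher in the heterozygotes and genes below it lower; asterisks mark the 3 called genes, and only Cela1 and Reck overlap.

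Genes of the pathway that neurofibromin controls differed little. The list of Ras and MAP kinase genes held 54 genes, of which 36 were measured and 28 passed the filter. None of the 28 was called, 13 were positive and 15 negative, and the median was -0.017 against 0.002 for all probe sets. Differences ran from -0.57 to 0.28. At an unadjusted p below 0.05 there was 1 gene (5.94% over all probe sets). All heterozygous pools lay above all wild-type pools for 1 gene (5.26% over all) and below them for 2 (4.78%).

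By role, the 7 Ras-family GTPases had a median of -0.027, the 8 exchange factors and adaptors -0.025, the 5 kinases 0.019, and the 6 feedback regulators and target genes -0.032. Rap1b, a Ras-related GTPase of adhesion and MAP kinase signalling, read 51.7, 64.5 and 52.0 in wild-type and 40.8, 40.9, 38.6 and 40.5 in heterozygous pools, without overlap, and differed by -0.47 (adjusted p = 0.832). Rras, a GTPase of the same family, differed by -0.34 with overlap. Only 2 of the other GTPase-activating proteins passed the filter. Rasa1, the p120 protein that shares neurofibromin's action on Ras, read 199.9, 195 and 205 in wild-type and 164, 178, 185 and 187 in heterozygous pools. All heterozygous Rasa1 values were lower, with a difference of -0.17 (adjusted p = 0.915) and 0.26 at P15. Rasa3, which acts on both Ras and Rap, differed by 0.17 with overlap.

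Shc1, an adaptor that couples receptors to Ras, differed by -0.39, and Gab1, a docking protein downstream of growth factor receptors, read 101, 99.2 and 82.4 in wild-type and 126, 102, 125 and 105 in heterozygous pools and differed by 0.28. Of the kinases, Map2k1 and Map2k2 (MEK1 and MEK2) differed by -0.07 and 0.23, and Mapk7 (ERK5) by -0.57. For Mapk7 heterozygous pool 1a read 23.6 and the others 90.6, 71.9 and 74.4, and without pool 1a the difference was -0.14. Dusp6, an ERK phosphatase whose transcription follows ERK activity, read 285, 299.6 and 334 in wild-type and 399, 339, 325 and 351 in heterozygous pools, which overlapped, and differed by 0.21 (adjusted p = 0.89). The lists describe RNA levels, and the activity of Ras or ERK was not measured. Rasa1, Rasa3, Gab1, Map2k1, Map2k2 and Dusp6 were named for their roles, after their values were seen.

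PI3 kinase and mTOR genes act downstream of Ras in growth control. Of 24 genes 15 passed the filter, none was called, 11 were positive (3771 of 7453 over all probe sets), and the median was 0.128 against 0.002 for all probe sets. In 4 of the 15 every heterozygous pool was above every wild-type pool, beside 5.26% over all probe sets. Pik3cd, a catalytic subunit, read 76.5, 34.4 and 67.3 in wild-type and 89.5, 92.5, 95.1 and 81.4 in heterozygous pools, with wild-type pool 2a the dimmest, and differed by 0.67 (adjusted p = 0.849), or by 0.32 without that pool. The regulatory subunit Pik3r2 read 229, 226 and 217 in wild-type and 314, 240.1, 243 and 307 in heterozygous pools and differed by 0.29. Eif4e, the cap-binding translation factor released by mTOR signalling, differed by 0.55 (adjusted p = 0.594), with a small overlap, and by -0.04 at P15. At P15 the list's median was -0.003, and without heterozygous pool 1a its P10 median was 0.193.

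Cyclic AMP genes were centred near 0, with none of 21 called and a median of 0.018. Adcy8, a calcium-stimulated adenylyl cyclase of hippocampal neurons, read 79.9, 87.8 and 68.6 in wild-type and 131, 114, 104 and 95.4 in heterozygous pools, with no overlap. Its difference was 0.49 (SE 0.17, adjusted p = 0.548), against -0.33 at P15, and the change between the ages was not called (adjusted p = 0.449). Gnai3, an inhibitory G protein subunit, differed by 0.28 (adjusted p = 0.686), Pde1a, a calcium-dependent phosphodiesterase, by 0.29, and Adcy6, another cyclase, by 0.22, each with overlap.

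Structural myelin genes formed the list whose median lay farthest below that of all probe sets among lists with over 1 gene, and no member was called. Of 17 genes 10 were measured and 8 passed the filter, of which 6 were negative (3678 of 7453 over all probe sets). All heterozygous pools were below all wild-type pools in 3 (4.78% over all probe sets). An unadjusted p below 0.05 was reached by 4 (5.94% over all). The median difference was -0.411. Other short lists had medians away from 0 in the opposite direction, choroid plexus at 0.424 (6 genes) and blood cells at 0.256 (5 genes). With no member called, a genotype difference in these genes was not established. Bulk tissue could not tell fewer oligodendrocytes from less myelin RNA per oligodendrocyte, and no cause of the lower values was tested. The pups were sampled when these transcripts were still scarce, since Mbp averaged 664.7 in wild type at P10 and 2600 at P15.

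Mbp, myelin basic protein, read 689, 649.7 and 655 in the wild-type pools and 474, 602, 478 and 581 in the heterozygous pools. Every heterozygous pool was lower, and the difference was -0.32 (SE 0.12, adjusted p = 0.594). A dimmer second Mbp probe set gave -0.04. Mag, the myelin-associated glycoprotein of the inner myelin wrap, read 77.0, 71.8 and 60.6 in wild-type and 34.5, 58.0, 30.1 and 57.1 in heterozygous pools, again without overlap, and differed by -0.69 (SE 0.27, adjusted p = 0.65). A second Mag probe set gave 0.06.

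Mobp, a basic protein of compact myelin, read 103, 67.3 and 60.8 in wild-type and 41.0, 51.3, 21.2 and 49.2 in heterozygous pools. Its 4 probe sets differed by -0.96, -1.25, -1.19 and -0.41, and the first pair had no overlap between genotypes (adjusted p = 0.7 for the brightest over all ages). At P10 the last was the brightest, with means of 119 and 91.2, overlap and an adjusted p of 0.893. The second was dim, with means of 21.0 and 10.2. Mog, a glycoprotein of the outermost myelin layer, was dim at this age, reading 22.1, 6.24 and 11.0 in wild-type and 2.46, 8.28, 12.5 and 3.86 in heterozygous pools, and its difference of -1.04 came with overlap. It was -0.57 without wild-type pool 1b and -0.64 without heterozygous pool 1a. Mal, a proteolipid of myelin rafts, differed by -0.48 and Cldn11, the tight junction protein of myelin, by -0.34, both with overlap. Pmp22 and Cd9, membrane proteins also made by other cells, were near 0 at 0.08 and 0.14. Cnp and Gpr37 were below the filter at 0.84 and -0.62.

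At P15 the same 6 genes were positive. Mbp differed by 0.42, Mag by 0.45, Mobp by 0.74, Mog by 0.64, Mal by 0.96 and Cldn11 by 0.61, and the list's median was 0.530. The difference between the ages was largest in relation to its error for Mbp (unadjusted p = 1.35e-04, adjusted p = 0.251). An unadjusted p below 0.05 for that difference was reached by 6 of the 8, beside 505 of 7453 probe sets, and none was called (0 of 7453, 0%). Summed oligodendrocyte markers, of which 3 of 4 were measured and Mbp gave most of the signal, ran from 661.2 to 724.0 in wild type and from 503.1 to 620.0 in heterozygotes at P10. Leaving out each P10 pool in turn kept 6 of 8 negative and moved the median between -0.337 and -0.539. The number at an unadjusted p below 0.05 was 1 without wild-type pool 1b and 2 without heterozygous pool 1a or 2a. With log2(value + 32) the median was -0.235, and 1 gene had an unadjusted p below 0.05.

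**Figure D4:**
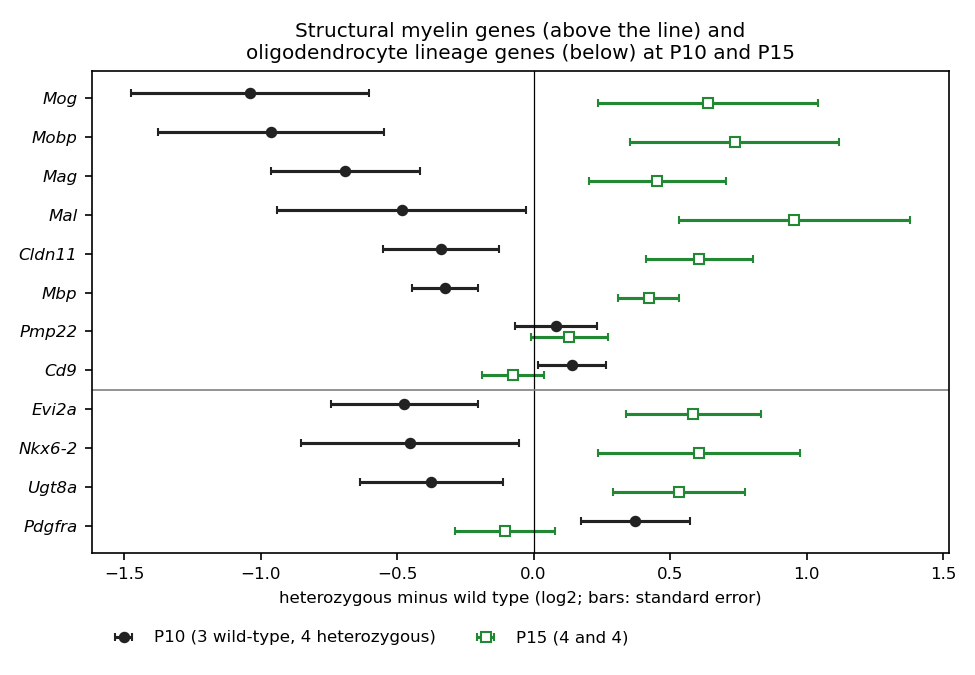
Heterozygous minus wild-type difference (log2, x axis) with its standard error at P10 (black circles) and P15 (green open squares) for the 8 structural myelin genes tested and 4 oligodendrocyte lineage genes (y axis). The 6 upper myelin genes, Evi2a, Nkx6-2 and Ugt8a lie below 0 at P10 and above 0 at P15, and none of the differences was called.

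The oligodendrocyte lineage list, which holds precursor genes as well as maturation genes, had 14 tested members, none called, and a median of -0.017. Pdgfra, the receptor that marks oligodendrocyte precursors, read 565, 778 and 608 in wild-type and 796, 863, 796 and 885 in heterozygous pools. All heterozygous values were higher, by 0.37 (adjusted p = 0.844). Sox10, a factor of the whole lineage, read 173, 163 and 146 in wild-type and 172, 212, 183 and 183 in heterozygous pools, which overlapped, and differed by 0.22. Sox10 was named for its role, after its values were seen. Ugt8a, which makes the myelin lipid galactosylceramide, differed by -0.37, and Nkx6-2, a factor of maturing oligodendrocytes, by -0.45, both dim and overlapping. Without wild-type pool 1b the Nkx6-2 difference was 0.06.

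Evi2a lies within an intron of Nf1 on the opposite strand and is the 1 measured gene of the 3 nested there. It read 46.4, 50.7 and 52.7 in the wild-type pools and 29.2, 38.8, 34.7 and 42.3 in the heterozygous pools. The heterozygous values were lower without overlap, with a difference of -0.47 (SE 0.27, adjusted p = 0.856), while a dimmer probe set gave -0.24. At P15 the difference was 0.59. The gene is known to be expressed in oligodendrocytes, whose myelin genes differed in the same directions at both ages, and their part in the Evi2a value was not tested.

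Genes of immature neurons and axon growth were mostly slightly positive, 23 of 30 (3771 of 7453 over all probe sets), with a median of 0.072. None was called, and 0 had an unadjusted p below 0.05 (5.94% over all). Sox11, a factor of newborn neurons, read 494, 373 and 413 in wild-type and 426, 629, 786 and 554 in heterozygous pools and differed by 0.46 (adjusted p = 0.838), with -0.43 at P15. L1cam, an axonal adhesion molecule, read 98.0, 105 and 95.7 in wild-type and 121, 137, 112 and 151 in heterozygous pools, without overlap, and differed by 0.38. Dpysl2 and Dpysl3, collapsin response mediators of growing axons, differed by 0.38 and 0.35, with overlap. The list's median was -0.098 at P15.

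A list of transcription factors of neural development did not include Zic2, which was called. Of its 31 genes tested 21 were negative (3678 of 7453 over all probe sets), with a median of -0.051 and none called. In 4 of them all heterozygous pools were below all wild-type pools, beside 4.78% over all probe sets. The direction changed without wild-type pool 2a, where 15 of 31 were negative and the median was 0.007, and without wild-type pool 1b the median was -0.145. Nfia, a factor that drives glial differentiation, read 89.5, 91.2 and 87.2 in wild-type and 85.7, 67.4, 60.7 and 33.8 in heterozygous pools and differed by -0.61 (adjusted p = 0.648), or by -0.34 without heterozygous pool 2b. Id2, an inhibitor of basic helix-loop-helix factors, read 855, 1066 and 1053 in wild-type and 703, 717, 829 and 849 in heterozygous pools and differed by -0.35 (adjusted p = 0.644). Meis2, a homeobox factor, differed by -0.52 with overlap.

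In the Wnt list 18 of 25 genes were positive (3771 of 7453 over all probe sets), the median was 0.163 and none was called. Wnt3, a secreted ligand expressed in the hippocampus, had a negative difference, reading 37.8, 41.7 and 43.7 in wild-type and 42.6, 21.4, 7.79 and 11.0 in heterozygous pools. Heterozygous pool 1a was at the wild-type level and the other pools were lower, giving -1.29 (SE 0.40, adjusted p = 0.423), with 0.56 at P15. Dvl2, a cytoplasmic transducer, differed by 0.50, the feedback inhibitor Axin2 by 0.50 and the receptor Fzd7 by -0.46, all dim and overlapping. Without wild-type pool 2a the list's median was 0.082.

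Adaptor proteins of the 14-3-3 family bind neurofibromin and Raf. Ywhaz read 1948, 3299 and 2953 in wild-type and 3772, 3419, 3428 and 3549 in heterozygous pools, and differed by 0.41 (adjusted p = 0.553). Wild-type pool 1b was the dimmest, and without it the Ywhaz difference was 0.18. Ywhab read 309, 316 and 301 in wild-type and 374, 380.3, 400.1 and 379 in heterozygous pools, without overlap, and differed by 0.31 (adjusted p = 0.553). Ywhaq differed by -0.12 with overlap, and the median over the 6 tested members was 0.035.

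**Figure D5:**
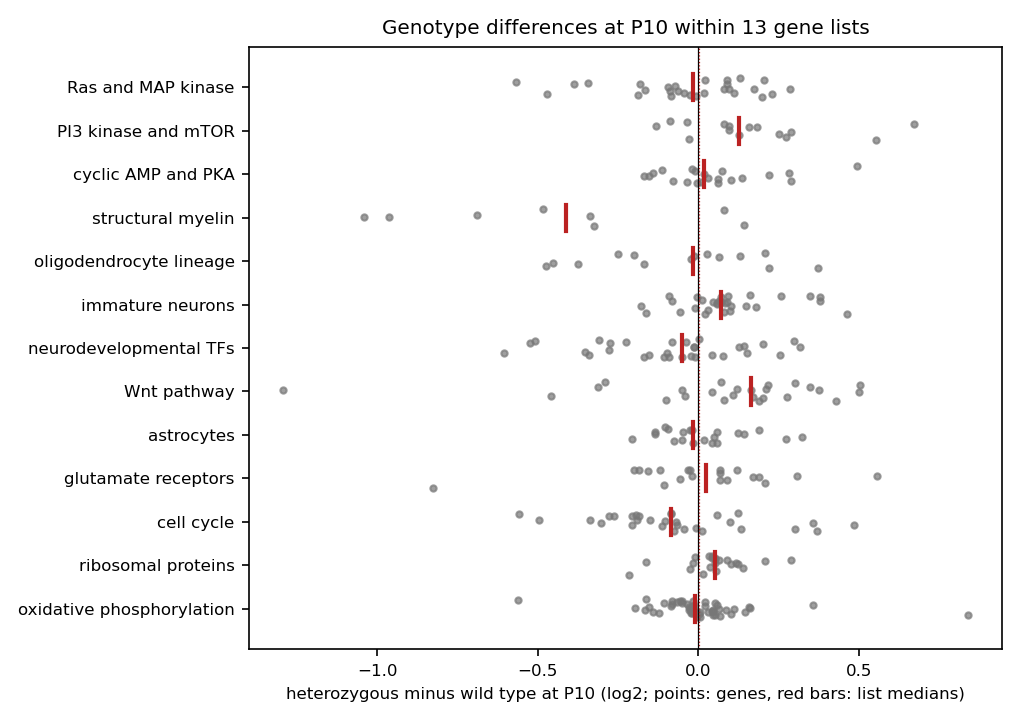
Each grey point is the heterozygous minus wild-type difference at P10 (log2, x axis) of 1 gene that passed the filter, by gene list (y axis), and red bars are list medians. The structural myelin median (-0.411) lies apart from 0, the Ras and MAP kinase median (-0.017) lies near it, and none of the genes shown was called. Among lists not shown, the choroid plexus median was 0.424 (6 genes) and that of blood cells 0.256 (5 genes).

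Astrocyte genes were centred at -0.015 over 21 genes. Aldoc, the astrocytic glycolytic enzyme aldolase C, was bright and tight, reading 1346, 1279.6 and 1409 in wild-type and 1865, 1449, 1771 and 1668 in heterozygous pools without overlap, and differed by 0.32 (SE 0.09, adjusted p = 0.329). Gja1, the astrocyte gap junction protein connexin 43, read 1939, 1746 and 2013 in wild-type and 1789.6, 1604, 1595 and 1592 in heterozygous pools and differed by -0.21. Slc4a4, a bicarbonate transporter, and Glul, glutamine synthetase, differed by 0.27 and 0.19 with overlap.

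Receptor and synaptic genes had medians of 0.024 (20 glutamate receptor genes), -0.071 (10 inhibitory receptor genes) and -0.028 (24 synaptic vesicle genes), and none was called. Grin2c, an NMDA receptor subunit that appears as circuits mature, read 78.7, 119 and 79.1 in wild-type and 111, 155, 161 and 114 in heterozygous pools and differed by 0.56 (adjusted p = 0.487). Grin2a, the NMDA receptor subunit that rises with age in forebrain neurons, read 51.9, 53.1 and 29.5 in wild-type and 26.9, 34.2, 11.9 and 32.6 in heterozygous pools and differed by -0.83 (adjusted p = 0.864), or by -0.48 without heterozygous pool 2a. Both overlapped. Gabrb2, a GABA receptor subunit, differed by -0.59 and Glra1, a glycine receptor subunit, by 0.41, with overlap. Without wild-type pool 2a the Gabrb2 difference was -0.20. Rab3a, a vesicle GTPase, read 45.5, 40.7 and 35.8 in wild-type and 49.8, 76.5, 117 and 66.8 in heterozygous pools, without overlap, and differed by 0.87 (adjusted p = 0.844).

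Cell adhesion genes had a median of 0.047 over 32 genes and none was called. Cdh4, the cadherin R-cadherin, read 25.2, 93.4 and 39.1 in wild-type and 78.7, 76.5, 108 and 96.4 in heterozygous pools at P10, with wild-type pool 2a high and overlapping, and differed by 0.98, or by 0.56 without wild-type pool 1b and 1.503 without pool 2a. Its difference at P15 was -1.61, and the change between ages had an unadjusted p of 3.32e-05 and an adjusted p of 0.124. Ncam2, a neural adhesion molecule, read 85.5, 75.8 and 75.0 in wild-type and 74.1, 42.4, 41.5 and 57.3 in heterozygous pools, all lower in heterozygotes, and differed by -0.59 (adjusted p = 0.587). Itga6, a laminin receptor subunit, differed by 0.41 without overlap.

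Genes of general cell function showed no called member either. Cell cycle genes were negative for 21 of 30 (3678 of 7453 over all probe sets), with a median of -0.085. Mcm5, a subunit of the replicative helicase, read 164, 123 and 149.6 in wild-type and 121, 114, 104 and 64.3 in heterozygous pools and differed by -0.56 (adjusted p = 0.553), whereas Ccne1, cyclin E, read 145, 140.2 and 145 in wild-type and 199, 166, 175 and 204 in heterozygous pools and differed by 0.37 (adjusted p = 0.384). Both were without overlap. Mcm2 differed by -0.50 and the mitotic kinase Plk1 by 0.49, with overlap. Without heterozygous pool 2b the differences of Mcm5 and Mcm2 were -0.36 and -0.12.

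Ribosomal protein genes were positive for 17 of 22 (3771 of 7453 over all probe sets), with a median of 0.052. Rpl37a read 1206, 1229 and 1239 in wild-type and 1663, 1342, 1414 and 1583 in heterozygous pools, a difference of 0.29 (adjusted p = 0.553). Oxidative phosphorylation genes had a median of -0.009 over 51 genes. Its extremes pointed in opposite directions: Atp5pb, an ATP synthase subunit, read 42.1, 80.3 and 81.0 in wild-type and 118, 121, 113 and 114 in heterozygous pools (0.84, adjusted p = 0.474), and Ndufb3, a complex I subunit, read 792, 693 and 619 in wild-type and 419.9, 441, 438 and 615 in heterozygous pools (-0.56, adjusted p = 0.7). Without wild-type pool 1b the Atp5pb difference was 0.53.

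Immediate early genes, which respond to neuronal activity and to ERK signalling, had a median of 0.007 over 25 genes. Fosl2, an AP-1 subunit, read 77.2, 47.4 and 46.0 in wild-type and 35.0, 22.3, 34.2 and 22.9 in heterozygous pools, all lower in heterozygotes, and differed by -0.98 (adjusted p = 0.553). Nr4a2 and Atf3, inducible transcription factors, differed by 0.38 and -0.31 with overlap.

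Of 15 tested genes of antigen presentation and the interferon response 7 were positive and 8 negative, with a median of -0.016 and none called. H2-D1, a class I histocompatibility gene, read 226, 224 and 233 in wild-type and 155, 189, 187 and 178 in heterozygous pools, without overlap, and differed by -0.37 (adjusted p = 0.509). Chaperones and heat shock genes had 23 positive and 21 negative members, with a median of 0.003 and none called. Pdia6, a disulfide isomerase of the endoplasmic reticulum, read 151, 155 and 111 in wild-type and 175, 183, 221 and 200.5 in heterozygous pools, without overlap, and differed by 0.50 (adjusted p = 0.437). The list's differences ran from -0.38 to 0.56, so that of Pdia6 was not its largest.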

How the data were processed

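The deposited intensities, 1 per probe set and library on a linear scale, are as the authors processed them, with software not given in the sources used here. Trimmed means (2% at each end) lay between 150.085 and 150.09 in the 7 P10 libraries, so the authors had scaled the arrays to 1 level, and no further normalization was applied. Values below 1 (1.05% to 2.09% of each P10 library) were set to 1 before log2 was taken. Of 12488 probe sets, 66 controls and the 40% of the rest with the lowest mean over all 30 libraries (4969, below an intensity of 30.8) were left out. The 7453 tested included 6762 with 1 gene symbol, for 5694 genes; names came from the platform annotation, updated through RefSeq (GRCm38.p6) for 10817 probe sets.

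Genotypes were compared with limma 3.58.1 (R 4.3.3), fitting 1 mean per genotype and age over all 30 libraries (18 residual degrees of freedom), an intensity trend, two-sided p-values and Benjamini-Hochberg adjustment; a call is an adjusted p below 0.05. The script was checked on simulated data. P-values measure the spread between pools of 2 pups, and the number of arrays limits the precision. Each gene in a list is represented by its brightest probe set on average over all 30 libraries. Named genes are Nf1, the called genes and those with the smallest p up to 10 in each direction (the probe set with the smallest p). From each list described, members were also named from among the 4 with the largest absolute difference, not always all of them. Folds are given only where a group mean exceeds an intensity of 50. The gene lists and the comparison were chosen with earlier results of these data known. Alternatives concerned the filter, the log2 offset, quantile normalization, the libraries fitted, the variance model, array weights, title codes and numbers as blocks, the Gapdh ratio and leaving out each P10 pool.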

Additional observations from a re-analysis of the deposited data

Results flagged for a closer look

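In 6 of 91 genes examined for this, 1 of the 4 heterozygous P10 pools stood far from the other 3 on the log2 scale; chance alone marks about 1 gene in 20. Adk read 500 in pool 1b, below 573 to 581 in the others, and Axin2 read 34.9 in pool 1b, below 42.6 to 43.4. Cnot4 read 143 in pool 1b, above 111 to 115. Gja1 read 1790 in pool 1a, above 1590 to 1600. Ndufb3 read 615 in pool 2b, above 420 to 441, and Pmp22 read 72 in the same pool, below 106 to 111.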

How the results depend on the processing

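The number of probe sets called at P10 (3) was 7 without the filter, 7 after quantile normalization, 5 without the intensity trend, 10 with array weights, 1 with log2(value + 32) and 1 with the P10 and P15 libraries only. It was 0 when the lowest 60% were left out (240 at unadjusted p below 0.05), a setting that no longer tested Degs2, Adar or Zic2. Leaving out each P10 pool in turn gave 0 to 4 calls. The difference between P10 and P15 (0 calls, 505 at unadjusted p below 0.05) gave 1 without the filter, 1 with the Gapdh ratio as a covariate and 0 to 2 with 1 pool left out. Deviations of pools with the same title code in both genotypes correlated at -0.037, 0.126 and 0.033, and 2 of 3 wild-type pools correlated best with their own code. So few pairs cannot tell whether the codes pair the pools. With the title code as a replicate block there were 0 calls at P10 (625 at unadjusted p below 0.05) and 34 for the difference between ages. With the title number as a replicate block there were 2 calls. Taking the brightest probe set of each gene, no gene of the lists was called in any of these settings (0 calls in each). Over all probe sets 1 was: without the filter a dim Hsp90aa1 probe set (means 3.83 and 17.3) differed by 2.40 (limma adjusted p = 0.0314), beside 0.03 on the brightest. The Nf1 difference ran from -0.67 to 0.69 with 1 pool left out (-0.67 without wild-type pool 1b, -0.018 and -0.454 without heterozygous pools 2a and 2b). For the 90 other genes named, 1626 of 1668 alternative values kept direction and side of the threshold, 24 lost a call, 17 gained one and 1 reversed, Nkx6-2 with -0.869 to 0.062 when 1 pool was left out (0.062 without wild-type pool 1b). Leaving out 1 pool moved the difference of 34 of these 90 genes by over 1.5 times. The causes were not tested. Dim signal limits the comparison: both Adar means and all 7 Nf1 values lie below an intensity of 50.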
